A study of Rattus norvegicus with 8 samples.

Results

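Zfp symbols name a large set of rat genes whose proteins carry zinc fingers, and their expression was examined in the hippocampi of adrenalectomized (ADX) rats infused with vehicle or corticosterone (CORT). Members were all gene symbols of the deposited table that begin with Zfp followed by a number, each represented by its most abundant transcript. They came to 243 of the 13272 symbols in the table. Whole-hippocampus RNAseq covered 8 rats, 4 given vehicle and 4 given CORT. All 8 had both adrenal glands removed. During recovery the drinking saline of both groups contained corticosterone, which was withdrawn before the experiment. The vehicle group then received 0.45% saline and the CORT group corticosterone-2-hydroxypropyl-beta-cyclodextrin at 0.75 mg/mL in the same saline, each infused for 30 min at zeitgeber time (ZT) 2. Hippocampi were collected 2 h later. The titles of the vehicle samples call them untreated, while their treatment label gives the saline vehicle, which was followed here. The rats were aged 3 to 4 months by the labels, which name the strain Sprague-Dawley, whereas the study's methods name male Lister hooded rats of a younger age.

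The table gives 1 value per group for each Ensembl transcript, as FPKM (fragments scaled by transcript length and by the number of mapped fragments). It holds no value for a single rat. No spread between rats could be computed, no test was run, and each difference below is a description of 2 group values. Read depth per library is unknown for the same reason. Of 15 listed hippocampal neuron markers 13 have a row. Camk2a was at 593 FPKM under vehicle and 667 FPKM under CORT, and the vesicular glutamate transporter Slc17a7 at 736 and 794 FPKM. The granule cell marker Prox1 was lower in level, at 10.9 and 8.96 FPKM, and the lowest of the 13 was Zbtb20, at 1.55 and 2.72 FPKM.

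Most Zfp proteins are built from arrays of C2H2 zinc fingers, in which a pair of cysteines and a pair of histidines hold a zinc ion and the finger reads bases in DNA. Many also carry a KRAB domain, which recruits the corepressor Trim28 and silences chromatin, often at transposable elements. The symbol is not a function: Zfp36, also called tristetraprolin, and Zfp36l1 have CCCH fingers that bind AU-rich elements in mRNA and bring about its decay. Corticosterone acts through the glucocorticoid and mineralocorticoid receptors, which are themselves zinc finger proteins of another class and are both abundant in the hippocampus.

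The family as a whole was similar in the 2 groups, and Zfp189 was the exception among its well-expressed members. The median log2 ratio of CORT over vehicle was 0.03 for the members and 0.02 for all symbols. Of the 243 members, 233 differed by less than 1.5-fold, 6 were at least 1.5-fold higher with CORT and 4 at least 1.5-fold lower. That is 2.47% and 1.65% of the members. Over all symbols, 1.92% were past the same fold on the higher side and 3.99% on the lower side, so the higher share of the members was near the background and the lower share under it. At a threshold of 2-fold, 2 members were higher and 1 lower, against 0.648% and 1.46% of all symbols. At a threshold of 0.322 on the log2 scale, 11 were higher and 12 lower, against 5.88% and 9.52% of all symbols. The summed level of the members was 2241 FPKM under vehicle and 2259 FPKM under CORT.

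**Figure D1:**
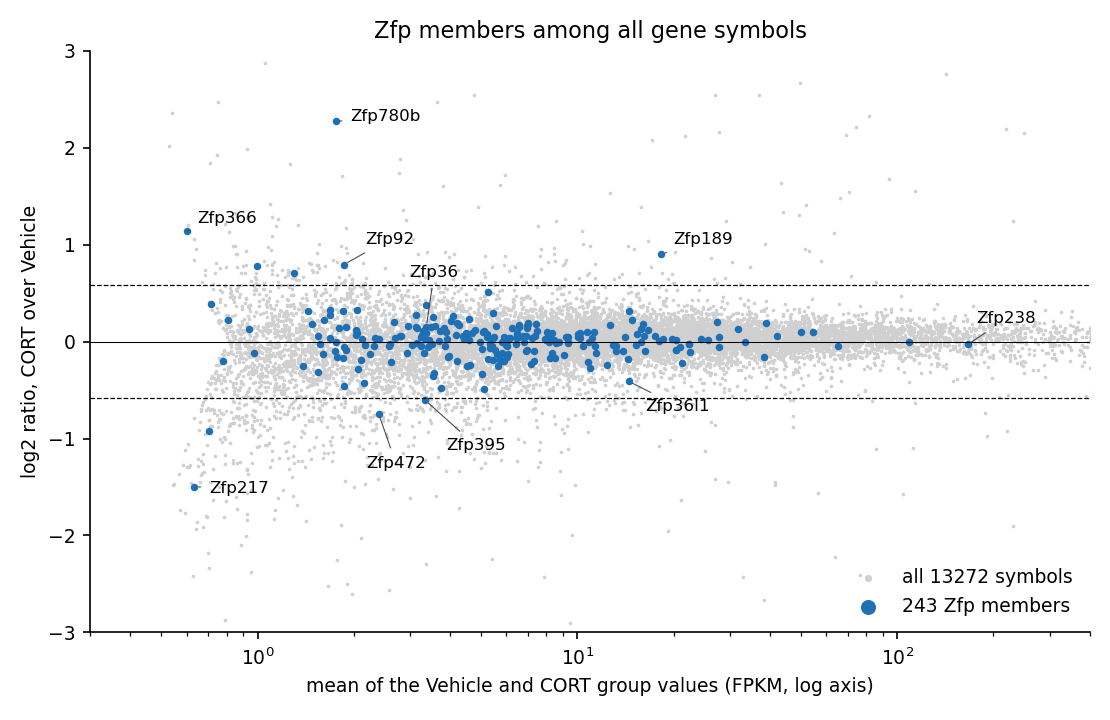
Log2 ratio of CORT over vehicle against the mean of both group values (FPKM, log axis) for all symbols (grey) and Zfp members (blue), with dashed lines at 1.5-fold. Zfp189 stands at 0.90 above members of a similar level, and 178 symbols lie outside the axes.

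Zfp189 encodes a C2H2 zinc finger transcription factor that has been studied in the prefrontal cortex for a part in resilience to stress. Its main transcript (ENSRNOT00000009584.6), on chromosome 5 of rn6 between 64789455 and 64800810, was at 12.7 FPKM under vehicle and 23.8 FPKM under CORT. That is 1.87-fold higher with CORT, a log2 ratio of 0.90. Among the 137 members with a mean of at least 5 FPKM, it was the sole one past 1.5-fold, against 1.16% of all symbols of that level on the higher side and 1.27% on the lower side. The other 136 lay between -0.49 and 0.51. Of the 55 other members whose mean level was within 2-fold of that of Zfp189, 0 had a ratio as high. Among all 4872 symbols in that range of level, 19 did, which is 0.390%.

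The second transcript of Zfp189 was less abundant and also higher with CORT. It stood at 0.960 FPKM under vehicle and 2.70 FPKM under CORT, a log2 ratio of 1.49. It made up 9.10% of the summed level of the gene. With both transcripts added, Zfp189 went from 13.7 to 26.5 FPKM, a log2 ratio of 0.95.

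The genes around Zfp189 were closer to equality. Within 500 kb of Zfp189, 7 other symbols have a row in the table, and 0 of them was past 1.5-fold in either direction. Since 1.92% of all symbols were higher and 3.99% lower, a count of 0 in 7 is near the background. The log2 ratios of these 7 ran from -0.27 to 0.45, with a median of 0.06. Mrpl50, a subunit of the mitochondrial ribosome whose locus ends 137 bp from that of Zfp189, was at 13.8 and 14.4 FPKM. The highest of the 7 was Grin3a, an NMDA receptor subunit, at 1.84 FPKM under vehicle and 2.51 FPKM under CORT.

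A set of 12 genes known to respond to glucocorticoids gives a scale for this value. The set was chosen with earlier results of these data known. The study itself names Per1, Sgk1, Tsc22d3, Klf9 and Klf15, with Zfp189, as under circadian and corticosteroid control, partly from these rats. The place of Zfp189 among the 12 is therefore a description and not independent support. Of the 12, 9 (Per1, Sgk1, Fkbp5, Tsc22d3, Klf9, Klf15, Ddit4, Pdk4 and Errfi1) were at least 1.5-fold higher with CORT and 1, the metallothionein Mt1, at least 1.5-fold lower. The shares over all symbols were 1.92% and 3.99%. The ratio of Zfp189 fell in the middle, with 6 of the 12 above it and 6 below. Over all symbols with a mean of at least 5 FPKM, 56 of 9511 had a higher ratio than Zfp189.

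Zfp36 was expressed at a low level and differed little between the groups. It was at 3.19 FPKM under vehicle and 3.55 FPKM under CORT, a log2 ratio of 0.15, on chromosome 1 of rn6 between 85380094 and 85382607. This placed it 44th of the 243 members by ratio and 173rd by level. Among 3416 symbols of similar level, 745 had a ratio at least as high. The log2 ratio of Zfp189 exceeded that of Zfp36 by 0.75, a difference that could not be tested.

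Zfp36l1, the paralog of Zfp36 with the same mode of action on mRNA, lay on the other side of 0. It was more abundant, at 16.5 FPKM under vehicle and 12.4 FPKM under CORT, a log2 ratio of -0.41, and was the ninth lowest of all members. Of 5041 symbols of similar level, 133 had a ratio as low. Neither Zfp36 nor Zfp36l1 was past 1.5-fold, and each has 1 row. Zfp36l2 and Zfp36l3, also listed for this family, have no row here.

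The sequence before the start of Zfp36 and Zfp36l1 is shown because these paralogs differed in direction, and that of Zfp780b and Zfp217 because they had the highest and the lowest ratio of all members. Each is the 250 bases before the RefSeq start on the GRCr8 build, 5′ to 3′, and these coordinates are not those of rn6. The windows are chr1:92799109-92799358 on the minus strand for Zfp36, chr6:104668691-104668940 on the minus strand for Zfp36l1, chr1:92247691-92247940 on the plus strand for Zfp780b and chr3:179321694-179321943 on the minus strand for Zfp217. Capitals mark matches on either strand to the GC box GGGCGG, the CCAAT box CCAAT or the TATA box TATAAA.
Zfp36: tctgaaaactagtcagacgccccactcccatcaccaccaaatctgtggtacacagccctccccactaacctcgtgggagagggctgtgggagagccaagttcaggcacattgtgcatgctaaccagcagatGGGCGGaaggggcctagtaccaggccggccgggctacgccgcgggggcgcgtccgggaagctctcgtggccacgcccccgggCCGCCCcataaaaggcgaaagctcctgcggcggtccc
Zfp36l1: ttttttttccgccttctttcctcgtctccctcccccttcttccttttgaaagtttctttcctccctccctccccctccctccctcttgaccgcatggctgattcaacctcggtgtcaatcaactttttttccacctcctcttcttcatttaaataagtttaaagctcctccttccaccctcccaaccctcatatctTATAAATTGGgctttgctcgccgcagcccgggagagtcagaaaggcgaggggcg
Zfp780b: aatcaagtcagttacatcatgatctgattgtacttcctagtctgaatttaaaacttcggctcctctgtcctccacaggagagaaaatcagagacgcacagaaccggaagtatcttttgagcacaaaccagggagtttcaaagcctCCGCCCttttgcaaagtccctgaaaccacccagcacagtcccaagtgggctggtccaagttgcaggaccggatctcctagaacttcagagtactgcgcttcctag
Zfp217: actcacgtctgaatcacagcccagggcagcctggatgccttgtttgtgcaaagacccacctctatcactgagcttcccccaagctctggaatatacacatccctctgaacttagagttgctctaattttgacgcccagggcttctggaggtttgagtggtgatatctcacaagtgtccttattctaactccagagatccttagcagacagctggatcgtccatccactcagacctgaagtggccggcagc
The Zfp36 window was rich in G and C (65.2%) and held 2 GC boxes, whereas that of Zfp36l1 (50.4%) held a TATA box running into a CCAAT box on the other strand. Zfp780b had 1 GC box, and the Zfp217 window held none of the motifs searched. The windows of Zfp36, Zfp36l1, Zfp780b and Zfp217 held no glucocorticoid receptor hexamer AGAACA, on either strand.

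Windows were available for 198 of the 243 members, and Zfp189 was not among them. The windows of all genes, used for comparison, include genes with no row here, while every member has one. The shares below were not corrected for this difference. The full glucocorticoid response element, AGAACA and TGTTCT with 3 bases between them, was in 0 of the 198 and in 1 of 27457 windows of all genes. An exact match is so rare that a count of 0 in 198 does not set the members apart. The hexamer AGAACA alone was in 15.7% of the member windows and 17.1% of all windows. The GC box was in 42.4% of the member windows against 32.4% of all, and the TATA box in 8.59% against 13.1%. The CCAAT box was in 37.4% against 34.3%, the E-box CACGTG in 5.05% against 5.79%, and the cAMP response element TGACGTCA in 2.02% against 1.70%. Member windows were also richer in G and C, with a median of 56% against 52%. Such matches describe the letters in these windows and do not show binding.

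Most members were expressed at low to moderate levels. The median over members was 5.60 FPKM under vehicle and 5.37 FPKM under CORT, against 11.4 and 11.6 FPKM over all symbols. By the mean of both groups, 9 members were under 1 FPKM, 97 between 1 and 5 FPKM, 114 between 5 and 20 FPKM, and 23 at 20 FPKM or more. Zfp189 was 26th from the top.

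The 8 most abundant members each differed by less than 0.322 on the log2 scale. Zfp238, listed by RefSeq as Zbtb18, is a repressor needed for the development of excitatory neurons, and was highest at 168 FPKM under vehicle and 165 FPKM under CORT. Zfp706 followed at 109 and 109 FPKM, and Zfp637 at 66.4 and 64.6 FPKM. Zfp365, which binds the neurodevelopmental protein Disc1, was at 52.4 and 56.3 FPKM. Zfp207, a protein of the mitotic spindle, was at 48.6 and 51.8 FPKM. None of these stood apart between the groups, their log2 ratios lying between -0.04 and 0.10. Zfp180 was at 41.1 and 42.7 FPKM. Zfp326, a subunit of a complex that joins transcription to splicing, was at 36.3 and 41.3 FPKM, a log2 ratio of 0.19. Zfp91, a ubiquitin ligase of the noncanonical NF-κB pathway, was at 40.3 and 36.1 FPKM, a log2 ratio of -0.16.

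The spread of the log2 ratios was narrower at 5 FPKM or more than between 1 and 5 FPKM, in the members as in all symbols. The interquartile range of the members was 0.59 under 1 FPKM, 0.23 between 1 and 5 FPKM and 0.16 at 5 FPKM or more. For all symbols it was 0.85, 0.40 and 0.18 in the same ranges. The range under 1 FPKM is not comparable with the others, because the higher value of each row of the table is at least 0.800 FPKM. One group was under that level in 7 of its 9 members and in 68.1% of all symbols there, so the choice of rows can itself widen it. Between 1 and 5 FPKM this held for 1 of 97 members. Between 1 and 5 FPKM, 8.25% of all symbols but 2 of 97 members (2.06%) were at least 1.5-fold lower, and 3.14% of all symbols and 3 members (3.09%) at least 1.5-fold higher. Under 1 FPKM, 2 of 9 members were higher and 2 lower, against 8.81% and 28.7% of all symbols. At 1 FPKM or more, 4 were higher and 2 lower, against 1.66% and 3.06%. At 5 FPKM or more, 96.4% of the members and 92.3% of all symbols differed by less than 0.322 on the log2 scale.

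**Figure D2:**
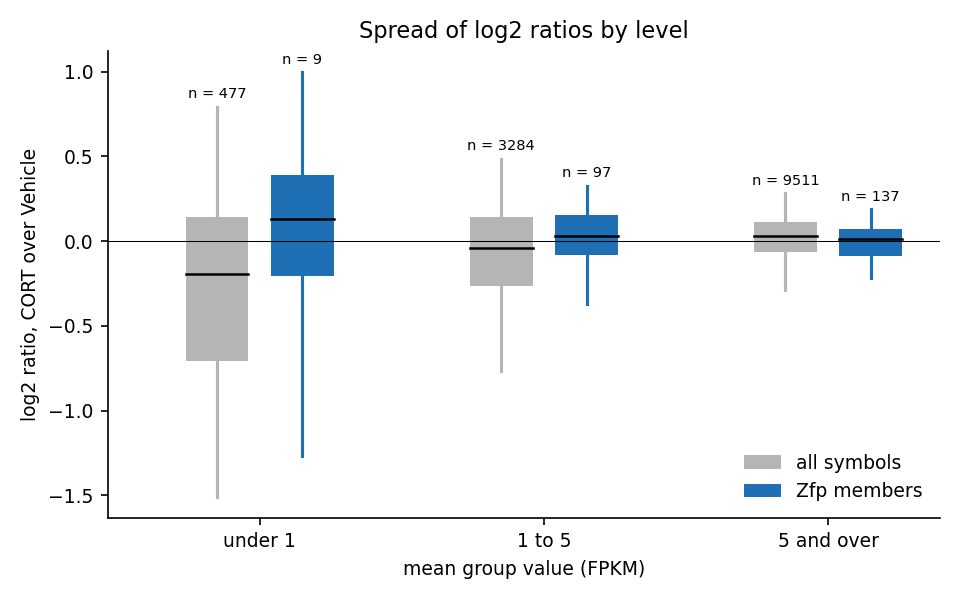
Log2 ratio of CORT over vehicle for all symbols (grey) and Zfp members (blue) in 3 ranges of mean FPKM. Boxes span the quartiles, black lines are medians and thin lines run from the 5th to the 95th percentile over genes. For members the box is 0.23 high between 1 and 5 FPKM and 0.16 at 5 FPKM or more, and the leftmost range holds 9 members, 7 of them with one group under 0.800 FPKM.

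Of the 6 members at least 1.5-fold higher with CORT, 5 were at low levels. Zfp780b had the highest ratio, from 0.602 to 2.91 FPKM, a log2 ratio of 2.27. Zfp366, also called DC-SCRIPT, is a coregulator of nuclear receptors known from dendritic cells, and was at 0.376 and 0.828 FPKM (1.14). Zfp92, on the X chromosome, was at 1.36 and 2.36 FPKM (0.79). These 3 had a lower level in both groups than Zfp189 had with vehicle. Zfp707 was at 0.731 and 1.26 FPKM (0.78), and Zfp626 at 0.988 and 1.62 FPKM (0.71). Zfp626 was the nearest member inside the threshold, and Zfp385b, at 4.33 and 6.17 FPKM (0.51), the nearest outside it. Below it, among members with a mean of at least 1 FPKM, came Zfp286a at 2.92 and 3.81 FPKM (0.38), Zfp354a at 1.81 and 2.28 FPKM (0.33) and Zfp236 (0.33).

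The 4 members at least 1.5-fold lower with CORT were all under 5 FPKM. Zfp217, a repressor and a known oncogene, was at 0.937 FPKM under vehicle and 0.332 FPKM under CORT, a log2 ratio of -1.50. Zfp78 was at 0.924 and 0.487 FPKM (-0.93). Zfp472 was at 3.00 and 1.79 FPKM (-0.75). Zfp395, which binds the promoter of the gene mutated in Huntington's disease, was at 4.04 and 2.65 FPKM (-0.61) and was the nearest inside the threshold, with Zfp35 at 5.96 and 4.24 FPKM (-0.49) the nearest outside it. Between Zfp35 and Zfp36l1 lay Zfp90 (-0.48), Zfp839 (-0.45) and Zfp879 (-0.42), all under 5 FPKM in both groups. Next after Zfp36l1, among members with a mean of at least 1 FPKM, came Zfp606 (-0.36).

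**Figure D3:**
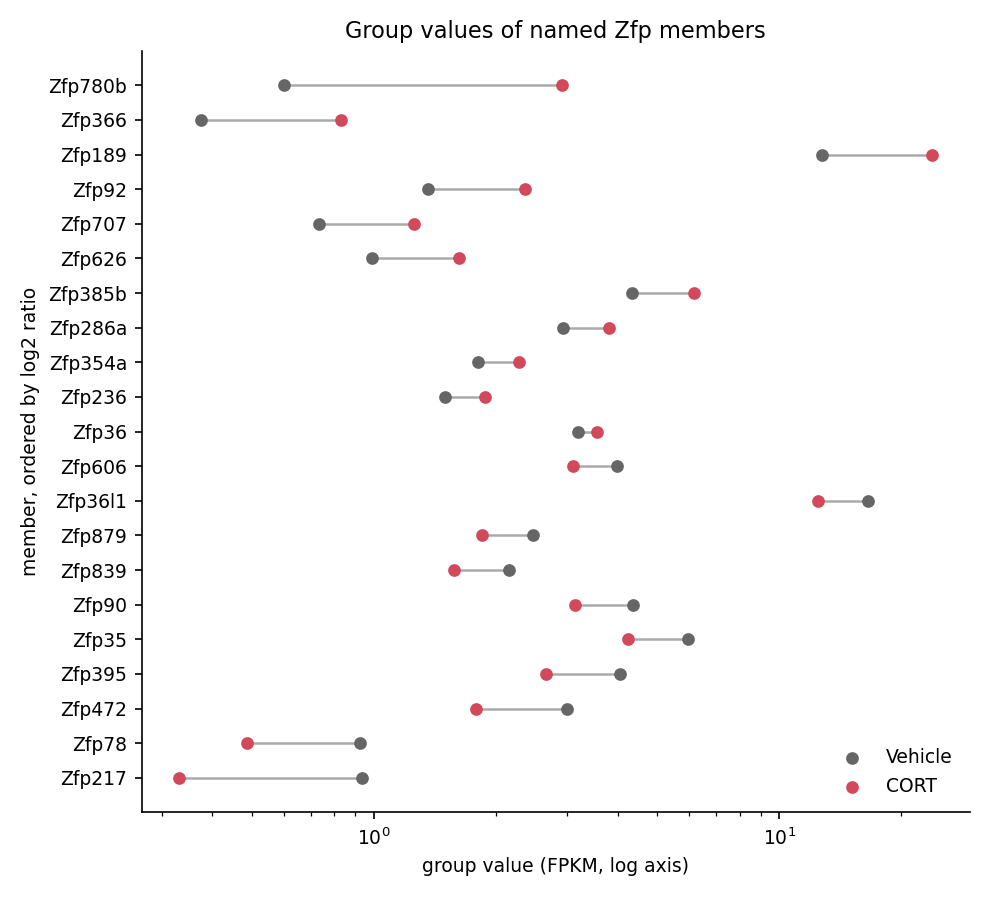
Vehicle (grey) and CORT (red) group values (FPKM, log axis) of Zfp36, Zfp36l1, the members past 1.5-fold, and the 8 highest and 8 lowest ratios among members with a mean of at least 1 FPKM, ordered by ratio. The points of Zfp189 lie at 12.7 and 23.8 FPKM, to the right of the other members past 1.5-fold.

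The lowest values of the table bear on these members. In each row of the table the higher of the 2 group values is at least 0.800 FPKM. The study's methods removed genes whose expression was too low by a minimum alignment count. No source used here states a filter at 0.800 FPKM. If rows were chosen by it, a member under it in one group was listed only through the other. One group was under it in 8 members, of which Zfp780b, Zfp366 and Zfp707 were at least 1.5-fold higher with CORT and Zfp78 and Zfp217 at least 1.5-fold lower. With both groups at 0.800 FPKM or more, 235 members were left, and Zfp189, Zfp92 and Zfp626 were past 1.5-fold on the higher side and Zfp472 and Zfp395 on the lower side. That is 1.28% and 0.851% of them, against 1.54% and 2.72% of the 12891 symbols treated in the same way.

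Members with several transcripts showed how far a ratio can depend on the row. Of the 243 members, 45 had more than 1 row, with 295 rows for the family in all. In Zfp865, Zfp866 and Zfp94, a row lies at a separate locus of the same chromosome, so rows that share a symbol need not share a gene. The 52 less abundant rows had a median level of 1.86 FPKM and a median log2 ratio of 0.05. Of these, 8 (15.4%) were at least 1.5-fold higher with CORT and 0 at least 1.5-fold lower, whereas 14.4% and 8.98% of all 2994 such rows were higher and lower. In 4 of the 8, the rows of Zfp35, Zfp84, Zfp280d and Zfp384, the vehicle value was under 0.800 FPKM. With both groups at that level or more, 4 of 46 rows (8.70%) were higher and 0 lower, against 9.38% and 5.27% of 2602 such rows of all symbols.

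In 10 of the 45 members (22.2%) the rows differed in direction and by more than 1.5-fold, near the 24.1% of all 2383 symbols with several rows. For Zfp35, Zfp84 and Zfp280d this rests on a row under 0.800 FPKM with vehicle. The main transcript of Zfp35 was at 5.96 and 4.24 FPKM and its second transcript at 0.777 and 2.61 FPKM, and the sum of both gave a log2 ratio of 0.02. Zfp148, a factor that binds GC-rich promoters, had a main transcript at 13.4 and 11.3 FPKM and a second at 2.02 and 4.76 FPKM, with a summed log2 ratio of 0.06. In both genes a higher minor transcript stood beside a lower main one.

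Zfp385b had 2 rows of nearly equal level, at 4.33 and 6.17 FPKM and at 5.44 and 4.51 FPKM, and a summed log2 ratio of 0.13. Zfp472, which was past 1.5-fold by its main row, had a summed log2 ratio of -0.35. The others were Zfp84, Zfp532, Zfp280d, Zfp467, Zfp202 and Zfp354a, with summed log2 ratios from -0.10 to 0.13. Zfp189 was not of this kind, as both of its rows were higher with CORT.

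**Figure D4:**
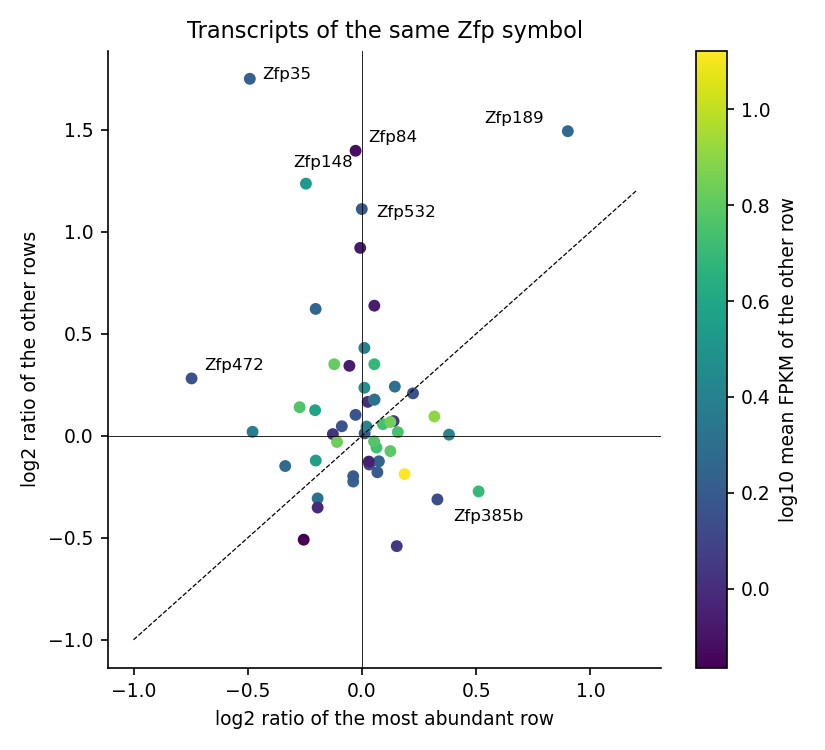
Log2 ratio of each less abundant transcript against that of the most abundant transcript of the same Zfp symbol, coloured by the log10 mean FPKM of the less abundant one, with a dashed line of equality. Zfp189 is at 0.90 and 1.49, to the upper right, while Zfp35 and Zfp148 lie in the upper left.

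Zfp genes are known to lie in clusters, and the neighbourhoods were examined for shared direction. Chromosome 1 held 61 members (25.1%), and chromosome 10 held 24. With members at most 500 kb apart joined, there were 156 neighbourhoods. Of these, 8 held 5 members or more, with 51 members in all, and the median log2 ratio of these members was 0.03, with 0 at least 1.5-fold higher and 2 (3.92%) at least 1.5-fold lower, against 1.92% and 3.99% of all symbols. Of the 74 members in neighbourhoods of 2 to 4, 4 (5.41%) were at least 1.5-fold higher and 0 lower, among them Zfp780b and Zfp707, which were under 0.800 FPKM with vehicle. Of the 118 members that stood alone, 2 (1.69%) were higher and 2 (1.69%) lower. One group was also under 0.800 FPKM in Zfp78, in a neighbourhood of 6, and in Zfp366 and Zfp217, which stood alone. At a mean of 1 FPKM or more, 0 of 50 members in neighbourhoods of 5 or more were higher and 1 (2%) lower. Of 69 in neighbourhoods of 2 to 4, 3 (4.35%) were higher and 0 lower. Of 115 alone, 1 (0.870%) was higher and 1 (0.870%) lower. All symbols of that level had 1.66% higher and 3.06% lower. The largest neighbourhood, on chromosome 4 between 77495662 and 78258545, held 9 members with log2 ratios from -0.25 to 0.19. The highest median of the 8, 0.12, was in a group of 7 on chromosome 1 between 80920746 and 81450094, which includes Zfp180. Zfp189, Zfp36 and Zfp36l1 each stood alone.

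One pair of neighbours was higher together, a description of low values around a member picked for having the highest ratio. Under vehicle, Zfp780b was at 0.602 FPKM, below the lowest row level of 0.800 FPKM, and Zfp626 at 0.988 FPKM. If rows were chosen by that level, Zfp780b was listed only through the CORT group. Zfp780b, on chromosome 1 between 84639113 and 84642305, and Zfp626, between 84652631 and 84653384, are 10326 bp apart, and both were past 1.5-fold. Zinc finger genes of similar sequence can share reads, and whether these 2 do was not tested. Of the 19 symbols within 500 kb of Zfp780b, 2 were at least 1.5-fold higher and 0 lower, against 1.92% and 3.99% of all symbols. These 2 were Zfp626 itself and LOC100360638, which went from 2.81 to 5.14 FPKM. The median log2 ratio of the 19 was 0.05.

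Other zinc finger families were compared by their symbols. Symbols that begin with Zbtb, most of them BTB zinc finger genes, had a median log2 ratio of 0.07 over 34 symbols, with 2 higher and 1 lower by 1.5-fold, against 1.92% and 3.99% of all symbols, which is the background for the other families too. Zbtb16, also called PLZF, a repressor known to respond to glucocorticoids, was at 5.88 FPKM under vehicle and 10.97 FPKM under CORT, a log2 ratio of 0.90, close to that of Zfp189. Zbtb20, which specifies hippocampal pyramidal neurons, was at 1.55 and 2.72 FPKM (0.81). Zbtb8a was the lower one, at 1.47 and 0.924 FPKM (-0.67).

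Among 16 symbols that begin with Zc3h, most of them CCCH genes, 1 was past 1.5-fold, Zc3h12c at 0.993 and 1.68 FPKM. Zkscan5 was the sole one of 5 Zkscan genes, at 6.25 and 9.50 FPKM, and Zmynd12 the sole one of 5 Zmynd genes, at 2.58 and 4.08 FPKM. Of the 9 Zscan, 7 Zfand, 21 Zdhhc, 7 Zmym and 14 Zcchc genes and the 1 Znf symbol, 0 were past 1.5-fold. In the Krüppel-like factors 2 of 14 (Klf9 and Klf15) were at least 1.5-fold higher, and in the Egr family 2 of 4 (Egr1 and Egr2). Egr2 was at 0.312 and 1.18 FPKM, under the lowest row level of 0.800 FPKM with vehicle. These counts rest on few genes in each family.

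**Figure D5:**
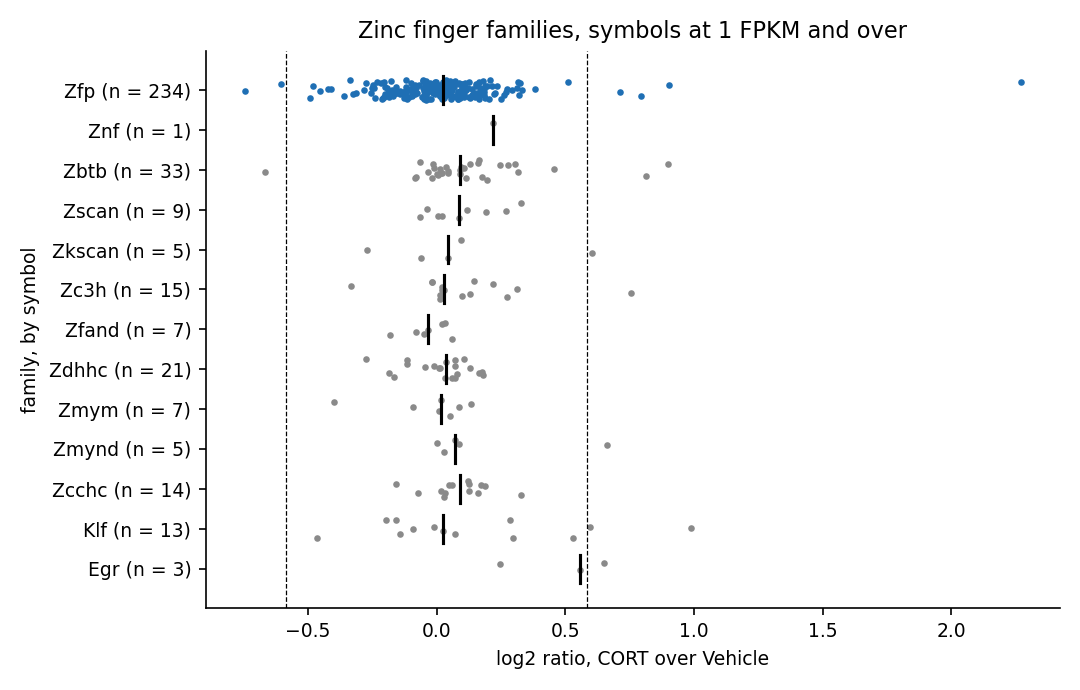
Log2 ratio of CORT over vehicle for symbols with a mean of at least 1 FPKM in the Zfp family (blue) and other zinc finger families (grey), with medians as black lines and dashed lines at 1.5-fold. The Zfp median is at 0.03, and Zfp780b is the point at 2.27.

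The corepressor machinery that KRAB zinc finger proteins use was examined next. Of 35 listed genes 30 have a row, and 0 of these was past 1.5-fold in either direction, with a median log2 ratio within 0.01 of 0. Since 1.92% of all symbols were higher and 3.99% lower, a count of 0 in 30 is near the background. Trim28, the corepressor itself, was at 51.5 FPKM under vehicle and 50.02 FPKM under CORT. Setdb1, a histone methyltransferase recruited by Trim28, was at 13.8 and 14.0 FPKM. The most abundant, the nucleosome remodeller Chd3, was at 97.6 and 108 FPKM. The values farthest from equality were those of Uhrf1, which guides maintenance DNA methylation, at 2.98 and 2.08 FPKM, and Morc3, at 7.77 and 10.5 FPKM.

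The machinery of AU-rich element decay, which Zfp36 and Zfp36l1 recruit, gave a like count. Of 42 listed genes 38 have a row, 0 was past 1.5-fold, against the same shares of all symbols, and the median log2 ratio was 0.04. Cnot1, the scaffold of the deadenylase complex, was at 15.5 and 15.4 FPKM. Mapkapk2, the kinase that inactivates tristetraprolin, was at 23.0 and 19.2 FPKM, and the most abundant, the 14-3-3 protein Ywhaz, at 890 and 942 FPKM.

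Messenger RNAs known to hold AU-rich elements differed in both directions. Of 30 listed genes 19 have a row, with 4 at least 1.5-fold higher, 2 at least 1.5-fold lower and a median log2 ratio of 0.08, where all symbols had 1.92% higher and 3.99% lower. The NF-κB inhibitor Nfkbia was at 9.61 and 19.1 FPKM, the transcription factors Fos at 2.87 and 5.38 FPKM and Egr1 at 20.8 and 32.6 FPKM, and the cytokine signalling inhibitor Socs3 at 0.991 and 1.59 FPKM. Ccnd1, a cyclin, was lower at 13.9 and 8.92 FPKM, as was the chemokine Ccl2 at 1.18 and 0.234 FPKM, under 0.800 FPKM with CORT. The most abundant, Vegfa, was at 27.7 and 29.2 FPKM.

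Markers of other tissues and cells also differed between the groups, and their part in the values of the Zfp members was not tested. In whole tissue, fewer cells of a type and less RNA per cell cannot be told apart. For the counts here and in the next paragraph, the background is 1.92% of all symbols at least 1.5-fold higher and 3.99% lower. At 5 FPKM or more it is 1.16% and 1.27%. Between 1 and 5 FPKM it is 3.14% and 8.25%, and under 1 FPKM 8.81% and 28.7%. Of 9 thalamic or habenular markers with a row, 7 were at least 1.5-fold lower with CORT and 1, Rora, at least 1.5-fold higher, with a summed level of 56.0 FPKM under vehicle and 33.9 FPKM under CORT. The 7 were Prkcd, Slc17a6, Tcf7l2, Lef1, Chrna3, Gpr151 and Chrnb4, with log2 ratios from -2.61 to -0.70. Of these, Chrna3, Chrnb4 and Gpr151 were under 0.800 FPKM with CORT, as Rora was with vehicle, so that if rows were chosen by that level these 4 were listed only through the group where they were higher. The most abundant, Calb2, was at 19.1 and 16.7 FPKM. All 4 blood markers with a row (Hba1, Hba2, Hbb and Alas2) were at least 1.5-fold lower, with a sum of 1419 and 812 FPKM and Hba1 at 583 and 347 FPKM. All 4 pineal markers with a row were lower with CORT, 3 of them (Tph1, Gngt1 and Gnat2) at least 1.5-fold, with Tph1 at 5.17 and 0.102 FPKM and the most abundant, Rom1, at 7.33 and 6.92 FPKM. The 3 were all under 0.800 FPKM with CORT, and 5 of the 9 listed pineal markers have no row here, so the same limit applies to this count. Of 8 meningeal markers, 7 were lower with CORT, 4 of them (Ptgds, Col1a1, Col3a1 and Slc6a13) at least 1.5-fold, with a sum of 1670 and 792 FPKM. Ptgds alone was at 1554 and 705 FPKM, and the other 7 summed to 116 and 86.6 FPKM. Choroid plexus markers summed to 6753 and 6741 FPKM, nearly all of it Ttr, and 0 of 8 was past 1.5-fold.

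Glial and vascular marker lists had medians under 0. The median log2 ratio was -0.23 for 10 oligodendrocyte markers (Opalin at least 1.5-fold lower, sum 5247 and 4341 FPKM, led by Mbp), -0.20 for 9 microglial markers (Tmem119 at least 1.5-fold higher, sum 308 and 267 FPKM, led by C1qa), -0.35 for 7 endothelial markers (Kdr at least 1.5-fold lower, sum 91.4 and 77.1 FPKM, led by Cldn5) and -0.09 for 8 astrocyte markers (Gfap and Aldh1l1 at least 1.5-fold lower, sum 3068 and 2668 FPKM, led by S100b). Hippocampal neuron markers had a median of 0.16 over 13 genes, with 1, Zbtb20, at least 1.5-fold higher, a sum of 3312 and 3498 FPKM, and Snap25 the most abundant. Of 6 liver markers 1 has a row, Alb, at 1.71 and 2.56 FPKM.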

How the data were processed

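Total RNA from 8 rat hippocampi was sequenced. Reads were aligned by the authors to the rn6 genome with TopHat2 2.0.10, and the deposited FPKM of each Ensembl transcript came from Cuffdiff 2.2.0, after CASAVA 1.8.2, as named in the submitters' processing notes. Libraries were normalized geometrically, transcripts needed at least 10 alignments, and there were corrections for multi-reads, bias and effective length. The authors pooled the replicates of a group into 1 FPKM value, so library depth and counting error are unknown. The deposited table also holds columns of the authors' own comparison (fold changes, a test statistic, p-values and q-values), which were not used. Coordinates are printed as the table gives them, and a locus can span overlapping genes.

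Each symbol was represented by the transcript with the highest mean of both groups. Log2 ratios are of CORT to vehicle, with no pseudocount, and 1.5-fold was the threshold of size. No test across genes was made. Counts were checked on simulated data. That check covers the counting steps and not the error of the group values. Members were named by rule: Zfp189, the tristetraprolin family, the 8 highest and 8 lowest ratios at 1 FPKM or more, the 8 most abundant, those nearest the threshold, and those whose transcripts differed in direction by more than 1.5-fold. In each gene list, those past 1.5-fold and the most abundant were named. Members past 1.5-fold under 1 FPKM, the genes around named members, the promoter windows, the lowest level of the table and other genes named for their role were added after values were seen. The members and gene lists were chosen with earlier results of these data known. Planned subgroups by protein domain were not made, as no protein sequences were used here. Older symbols were matched to RefSeq (GRCr8) for 234 of 243 members. Python 3.11.15, numpy 2.4.6, pandas 2.3.3 and matplotlib 3.10.9 were used.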

Additional observations from a re-analysis of the deposited data

How the results depend on the processing

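The log2 ratio of Zfp189 lay between 0.85 and 0.95, and that of Zfp36 between 0.12 and 0.15, with pseudocounts of 0.1 and 1 FPKM, with summed transcripts and with centring on the median of 0.02. The number of members past the fold threshold on the higher side, 6, became 2 with a pseudocount of 1 FPKM, 1 at a mean of at least 5 FPKM, 11 at 0.322 on the log2 scale, 2 at 2-fold and 14 when each transcript was counted. The number on the lower side, 4, became 0 with a pseudocount of 1 FPKM, 2 at a mean of at least 1 FPKM, 0 at a mean of at least 5 FPKM, 12 at 0.322 on the log2 scale and 1 at 2-fold. With 1 FPKM added, 1.03% of all symbols were higher and 1.82% lower, against 0.823% of the members higher. With each transcript counted, 4.21% of all rows and 4.75% of the member rows were higher, and 4.91% and 1.36% lower. A pseudocount shrinks low values, and a filter leaves fewer members. The median of the members stayed between 0.01 and 0.03. Of the 33 other named members, 8 went under 1.5-fold with a pseudocount of 1 FPKM, and with summed transcripts Zfp472 did and 7 with smaller ratios changed sign.

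Leaving out each rat in turn could not be done, because the table gives 1 value per group. No paired analysis was possible because no label ties a rat of one group to a rat of the other within these values.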
